A study of Mus musculus with 4 samples.

Results

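Sox1, Sox2, Sox3, Sox9, Pax6, Emx1, Emx2, Lhx2 and Hopx encode 9 transcriptional regulators of telencephalic progenitors and are described here. They were taken as all probes of the array, control spots aside, whose listed accession belongs to 1 of these 9 genes. This gave 12 probes of 9 genes, out of 55681 probes and 20887 genes matched by accession. The cells came from APPswe/PS1dE9 mice, a transgenic model with mutations that cause familial Alzheimer's disease, and from wild-type (WT) mice, both of the C57BL/6 strain. Telencephalic cells of embryonic day 13 were grown as neurospheres for 5 days with 20 ng/ml of EGF and 20 ng/ml of FGF2, and then differentiated on poly-L-lysine and laminin for 7 days in medium free of both factors. On each of 4 two-colour arrays an APPswe/PS1dE9 RNA was hybridised together with a WT RNA. APPswe/PS1dE9 was labelled with Cy3 for replicates 1 and 2, and with Cy5 for replicates 3 and 4. The labels give neither the transgene promoter nor the animals or litters behind each culture, so the p-values reflect how far the arrays spread, which may be technical. The array's App probe was at a log2 ratio of 0.12 ± 0.06 (adjusted p = 0.281), and whether it detects the transgene was not tested.

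Progenitors of the embryonic telencephalon, the radial glia that line the ventricles, are held in a dividing state and given a regional identity by a small set of transcription factors. The SoxB1 factors SOX1, SOX2 and SOX3 keep neural progenitors undifferentiated. SOX9 belongs to the SoxE group and is needed for the switch from neurons to glia. PAX6, EMX1, EMX2 and LHX2 pattern the dorsal telencephalon, the future cortex and hippocampus. HOPX is an atypical homeodomain protein that does not bind DNA itself, and it marks outer radial glia in human cortex and quiescent neural stem cells and astrocytes in mouse brain. Several of these genes, SOX2 and SOX9 among them, stay active in astrocytes.

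Hopx was 1.46-fold higher in APPswe/PS1dE9 cultures (log2 ratio 0.54 ± 0.06), and its level in the 4 APPswe/PS1dE9 RNAs lay above that in all 4 WT RNAs. The other 8 genes did not pass the test, with log2 ratios between -0.19 for Emx1 and 0.14 for Sox9. In all, 1 of 9 genes was higher and none was lower, where of the 20591 features tested 10.5% passed, 8.25% as higher and 2.28% as lower. Before adjustment Pax6 alone of the other 8 genes was under the threshold, as lower by limma. Over all features 1698 were higher and 470 lower, and with arrays centred on their median in place of loess 1308 were higher and 1307 lower. The median log2 ratio of the 9 genes was -0.10, against 0.01 over all features. Each value with an SE is limma's fitted log2 ratio over 4 arrays, positive where APPswe/PS1dE9 was higher. Its two-sided p was adjusted by Benjamini-Hochberg over all features, with a threshold of 0.05. Of the 9 genes, 4 (Sox1, Sox9, Pax6 and Hopx) had 1 sign on all arrays, as did 28.6% of all features. Sox9 and Hopx were higher throughout, as were 16.9% of features, and Sox1 and Pax6 lower throughout, as were 11.7%.

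**Figure D1:**
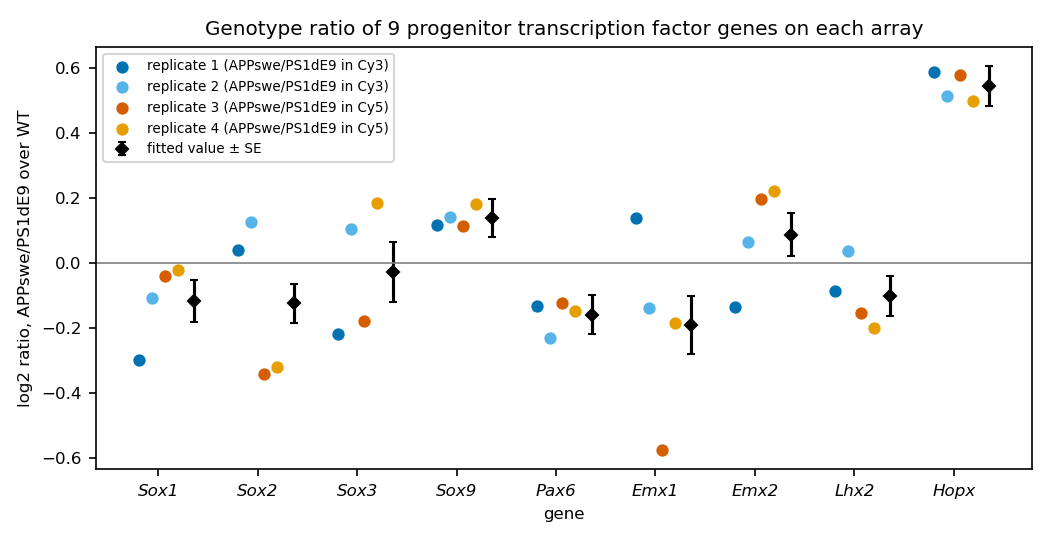
Log2 ratio of APPswe/PS1dE9 over WT (vertical axis) of the 9 genes (horizontal axis) on each of the 4 arrays, with points coloured by replicate and dye orientation, and the fitted value ± SE as black diamonds. The 4 Hopx ratios lie between 0.50 and 0.59, above every ratio of the other genes, while the Sox2 ratios fall on opposite sides of 0 in the 2 dye orientations.

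All 9 genes gave signal well above background in APPswe/PS1dE9 and in WT RNA on 4 of 4 arrays, after 7 days of differentiation. No culture from before differentiation was on the arrays, so a change from earlier levels was not tested. Of 25 genes that mark midbrain, hindbrain or spinal cord, such as Hox, En and Pax2 genes, 2 were bright enough to be tested (En2 at -0.05 ± 0.07 and Barhl1 at -0.09 ± 0.06), and neither passed. A level here is per RNA sample, so more cells of a type and more RNA per cell cannot be told apart. Spots well above background made up 49.5% to 59.6% of an array in the APPswe/PS1dE9 channel and 47.5% to 57.7% in the WT channel. Ratios of all features correlated (Spearman) at 0.55 and 0.49 within the dye orientations, and at 0.11 to 0.26 across them. On arrays 2 and 4 both genotypes had the X-inactivation transcript Xist well above background, and Y-linked Eif2s3y was detected in neither. On array 1 Eif2s3y was detected in APPswe/PS1dE9 alone and Xist in WT alone, and on array 3 it was the other way round.

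The sequences before the annotated starts of Hopx, the member that passed, and of Sox2, shown as the progenitor factor it is set against, follow for the 250 bases that end at each start. They come from RefSeq on build GRCm38.p6 and run 5′ to 3′ on the strand of the gene. Capitals mark matches to ACAAAG, a core letter sequence of SOX sites, or TTGGC, the short core of NFI sites, on either strand.
Hopx, downstream start, chr5:77095268-77095517, minus strand: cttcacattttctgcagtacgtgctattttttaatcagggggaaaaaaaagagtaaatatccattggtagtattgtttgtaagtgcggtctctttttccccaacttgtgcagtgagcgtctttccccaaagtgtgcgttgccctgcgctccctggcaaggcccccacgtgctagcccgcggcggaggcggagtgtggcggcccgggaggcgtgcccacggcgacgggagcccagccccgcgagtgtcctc
Hopx, upstream start, chr5:77115124-77115373, minus strand: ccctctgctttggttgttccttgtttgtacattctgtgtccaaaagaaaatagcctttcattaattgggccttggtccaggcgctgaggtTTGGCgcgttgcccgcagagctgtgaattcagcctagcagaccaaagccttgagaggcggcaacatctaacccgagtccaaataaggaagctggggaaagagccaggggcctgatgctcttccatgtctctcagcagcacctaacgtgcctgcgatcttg
Sox2, chr3:34649745-34649994, plus strand: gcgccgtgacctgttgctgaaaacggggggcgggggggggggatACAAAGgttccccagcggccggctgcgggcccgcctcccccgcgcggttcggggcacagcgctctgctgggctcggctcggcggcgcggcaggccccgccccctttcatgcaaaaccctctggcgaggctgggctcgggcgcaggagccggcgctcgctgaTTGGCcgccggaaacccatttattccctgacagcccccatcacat

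In the Sox2 window ACAAAG began 206 bases and TTGGC 45 bases before the start, and in the upstream Hopx window TTGGC began 160 bases before it. Of 32851 such windows in the RefSeq table, 16.5% held ACAAAG and 41.5% held TTGGC. The homeodomain core TAATTA (4.84% of windows) and the STAT-type letters TTCNNNGAA (7.02%) were in none of the 10 windows found for 7 of the 9 genes. ACAAAG was in 2 of these 10 windows and TTGGC in 3. The 2 Hopx starts differed in composition, with 18 CpG dinucleotides and 57.6% G or C before the downstream start and 8 and 52.4% before the upstream start. The Sox2 window held 27 CpG dinucleotides and 72% G or C, where the median window held 6 and 52.4%. The array probes do not tell the 2 Hopx starts apart here, since both probes are listed under the same transcript.

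Hopx was measured by 2 probes, both higher in APPswe/PS1dE9 on 4 of 4 arrays. The brighter probe, A_55_P2011286, had log2 intensities of 12.42, 12.34, 12.20 and 12.18 in APPswe/PS1dE9 RNA on replicates 1 to 4, against 11.83, 11.83, 11.62 and 11.68 in WT RNA. Every APPswe/PS1dE9 value was thus above every WT value, as for 8% of features; the opposite order, of which the 9 genes gave none, was found for 4.49%. Its log2 ratios were 0.59 and 0.51 with APPswe/PS1dE9 in Cy3 and 0.58 and 0.50 with it in Cy5, so the orientations gave 0.55 and 0.54. In the fit over all features it stood at 0.54 ± 0.06 (adjusted p = 0.00419), higher on 4 of 4 arrays. The second probe, A_52_P512575, had log2 intensities of 11.97, 11.97, 11.86 and 11.82 in APPswe/PS1dE9 RNA, against 11.13, 11.27, 11.37 and 11.38 in WT RNA. These did not overlap either, and the log2 ratios were 0.84 and 0.70 in one orientation and 0.49 and 0.44 in the other. With every probe as its own feature the second probe was at 0.62 ± 0.06 (limma adjusted p = 0.00358).

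The call of Hopx was lost when certain arrays were left out, while its ratio changed little. Without replicate 3 the log2 ratio was 0.52 ± 0.07 (adjusted p = 0.0559) and without replicate 4 it was 0.57 ± 0.07 (adjusted p = 0.0565), and neither passed. Without replicate 1 it was 0.53 ± 0.09 and without replicate 2 it was 0.56 ± 0.09, and both passed. The fits that lost the call thus had the smaller SE of Hopx. Other counts given without replicate 3 or without replicate 4 come from these same fits. On replicates 2 and 4, the arrays with Xist detected in both genotypes, the Hopx log2 ratio was 0.50 (adjusted p = 0.123, limma on 2 arrays).

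Some markers of astrocytes, of ependyma and choroid plexus and of microglia were higher, as Hopx was, and some markers of fibroblasts and neurons were lower. Of 7 astrocyte markers, all detected on 4 of 4 arrays in both genotypes, 4 were higher and none lower. Their summed intensity ranged from 117555 to 133468 in APPswe/PS1dE9 RNA and from 86615 to 106905 in WT RNA. These sums rest mainly on Aldoc and Gfap, the brightest of the 7. Aldoc had log2 ratios of 0.11 and 0.10 with APPswe/PS1dE9 in Cy3, and of 0.57 and 0.42 with it in Cy5. The 4 astrocyte calls became 2 without replicate 3, with the processed signals, with an offset of 16, with no background subtraction, with no filter and with no dye intercept, and 1 without replicate 4 and on replicates 2 and 4. Of 6 ependyma and choroid plexus markers 5 were higher, with sums of 8973 to 13602 in APPswe/PS1dE9 and 4603 to 5571 in WT RNA. Ttr, the brightest of the 6, weighed most in these sums. Of 6 measured microglia markers 5 were higher, by log2 ratios of 0.95 for Csf1r to 2.31 for Cx3cr1. The sum over the 6 was 10704 to 14408 in APPswe/PS1dE9 and 8204 to 10374 in WT RNA, but Itgam, which did not pass (0.11 ± 0.10, adjusted p = 0.552), made up 69.5% to 73.7% of it in APPswe/PS1dE9 and 84.9% to 87.7% in WT RNA. The other 5 summed to 3263 to 3783 in APPswe/PS1dE9 and to 1160 to 1289 in WT RNA. Among the microglia markers P2ry12 was too dim to be tested, and Tyrobp and Trem2 were well above background on 4 of 4 arrays in APPswe/PS1dE9 and on 1 of 4 in WT RNA. For Cx3cr1 this was 4 of 4 in APPswe/PS1dE9 and 2 of 4 in WT RNA. With both channels required above background on all arrays, 3 microglia markers were measured and 2 were higher. A second Csf1r probe, well above background on 4 of 4 arrays in both genotypes, was at 0.02 ± 0.07. That probe did not pass (limma adjusted p = 0.865 over all probes). Of 5 measured fibroblast and mural cell markers 2 were lower and none higher (Lum at -0.62 ± 0.06 and Pdgfrb at -0.45 ± 0.06, median -0.25), and that count was 1 without replicate 3, 0 without replicate 4, 0 on replicates 2 and 4 and 3 with median centring. Lum was well above background on 1 of 4 arrays in APPswe/PS1dE9 and on 4 of 4 in WT RNA. With both channels required above background on all arrays, 4 of these markers, without Lum, were measured and 2 were lower. Of 6 neuron markers 1, Dcx, was lower (-0.54 ± 0.11), with its other probes both at -0.34. No neuron marker passed without replicate 3, without replicate 4, with the processed signals, the authors' values, no background subtraction or no filter. With median centring 3 were lower. The part of these cells in the Hopx difference was not tested. Of 6 proliferation genes none passed, with a median log2 ratio of 0.02.

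**Figure D2:**
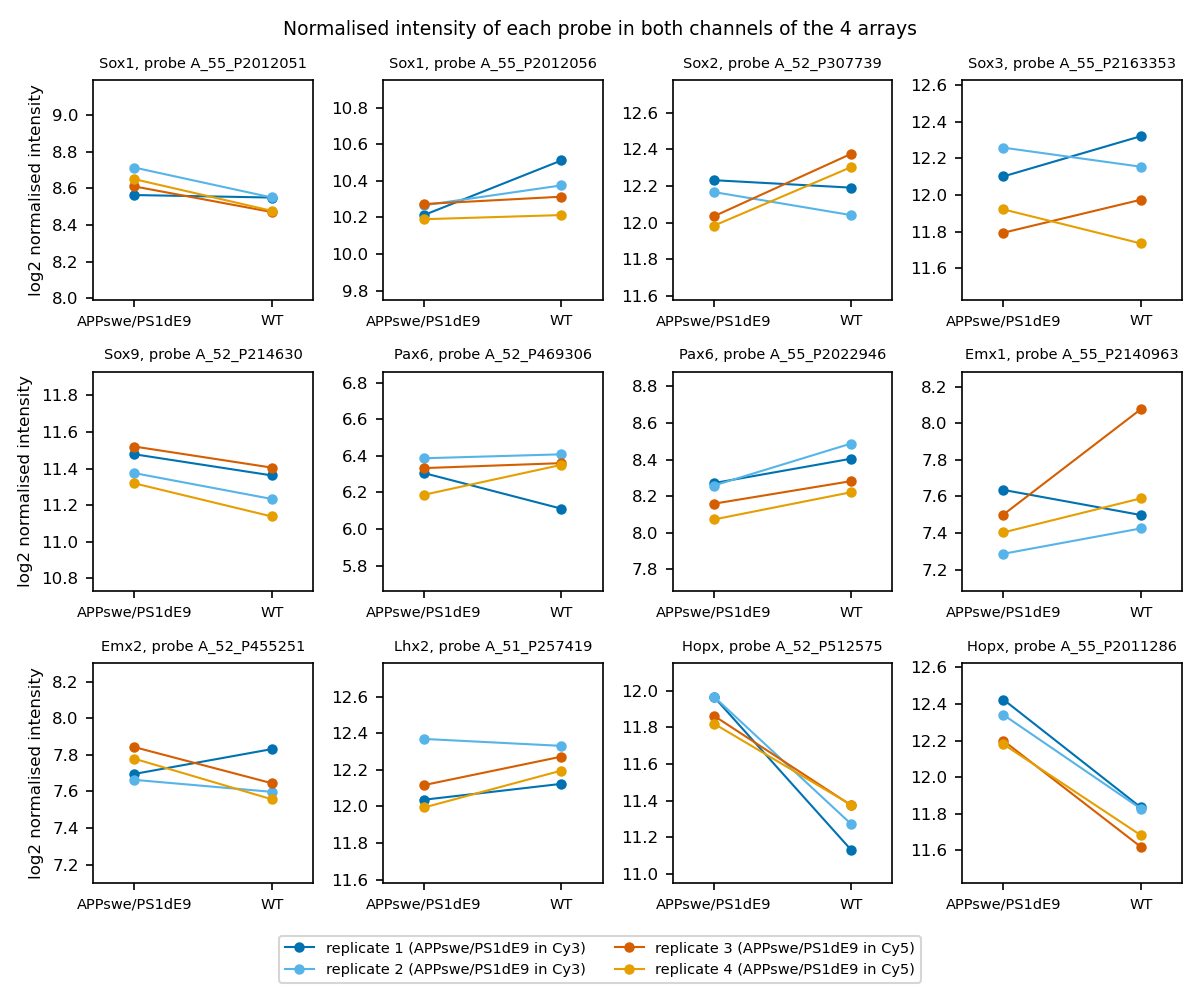
Normalised log2 intensity (vertical axis, of the same span in each panel) of each of the 12 probes in APPswe/PS1dE9 and WT RNA (horizontal axis), with a line for each array. Both Hopx probes fall from APPswe/PS1dE9 to WT on all 4 arrays, while probes such as those of Sox2, Sox3, Emx1, Emx2 and Lhx2 fall on some arrays and rise on others.

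The SoxB1 genes showed no difference that passed. Sox2, central to the self-renewal of neural progenitors, had log2 intensities of 12.23, 12.17, 12.03 and 11.98 in APPswe/PS1dE9 RNA, against 12.19, 12.04, 12.38 and 12.30 in WT RNA. The log2 ratios were 0.04 and 0.13 with APPswe/PS1dE9 in Cy3 and -0.34 and -0.32 with it in Cy5, so the sign followed the dye orientation. The fitted value was -0.12 ± 0.06 (adjusted p = 0.266), and the dye term of Sox2 did not pass (adjusted p = 0.242). The SE leaves out this gap between orientations, and without the dye term it was 0.10.

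Sox1, the SoxB1 gene most restricted to neural progenitors, had 2 probes on opposite sides of 0. The brighter had log2 ratios of -0.30, -0.11, -0.04 and -0.02 on replicates 1 to 4 and a fitted value of -0.12 ± 0.06 (adjusted p = 0.321). The dimmer had 0.01, 0.16, 0.14 and 0.17 and a fitted value of 0.12 ± 0.06, with an adjusted p of 0.302 over all probes. Neither passed, the mean over both probes was 0.0026, and the intensities of APPswe/PS1dE9 and WT RNA overlapped for the brighter probe. In the dimmer probe they did not: APPswe/PS1dE9 RNA lay at 8.56, 8.71, 8.61 and 8.65, against 8.55, 8.55, 8.47 and 8.48 in WT RNA. Of all features 8% were so ordered, with APPswe/PS1dE9 above. With the processed signals the log2 ratios of this probe were -0.05, -0.21, 0.08 and 0.05, and its fitted value was -0.03.

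Sox3, the X-linked SoxB1 gene, had log2 ratios of -0.22 and -0.18 on replicates 1 and 3, and of 0.10 and 0.19 on replicates 2 and 4. The signs thus followed neither dye orientation, and the negative values were those of the 2 arrays on which Xist was detected in 1 genotype alone. Array 1 had Xist in WT and array 3 had it in APPswe/PS1dE9 RNA. The fitted value was -0.03 ± 0.09 (adjusted p = 0.882), and on replicates 2 and 4 it was 0.15 (limma adjusted p = 0.773 on 2 arrays).

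Sox9, the SoxE factor of gliogenesis, was measured by a probe spotted 10 times on each array, of which 7 to 9 spots an array were used. The log2 ratios were 0.12, 0.14, 0.12 and 0.18 on replicates 1 to 4, higher on 4 of 4 arrays with an SD of 0.03 between arrays. Single spots within an array had an SD of 0.07 to 0.10. The intensities were 11.48, 11.38, 11.52 and 11.32 in APPswe/PS1dE9 RNA, against 11.36, 11.23, 11.41 and 11.14 in WT RNA, and the groups overlapped. The fitted value of 0.14 ± 0.06 did not pass (adjusted p = 0.215), and it was -0.01 when arrays were centred on their median without loess.

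Pax6, which drives cortical neurogenesis and sets the boundary between dorsal and ventral telencephalon, was lower on 4 of 4 arrays without passing the test. The brighter of its 2 probes had log2 ratios of -0.13, -0.23, -0.12 and -0.15 and a fitted value of -0.16 ± 0.06 (adjusted p = 0.167). Its intensities were 8.27, 8.26, 8.16 and 8.07 in APPswe/PS1dE9 RNA and 8.41, 8.49, 8.28 and 8.22 in WT RNA, which overlapped. With Feature Extraction's processed signals, which carry no offset, the value was -0.34 (adjusted p = 0.0702). The other Pax6 probe was not well above background in either genotype on any array and was not tested.

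The dorsal patterning genes did not pass either. Emx1, a gene of cortical progenitors and their excitatory neurons, had log2 ratios of 0.14, -0.14, -0.58 and -0.19. Its value on replicate 3 came with a WT intensity of 8.08, against WT intensities of 7.50, 7.43 and 7.59 on the other arrays, while APPswe/PS1dE9 intensities were 7.64, 7.29, 7.50 and 7.40. The fitted value was -0.19 ± 0.09 (adjusted p = 0.254), it was -0.09 without replicate 3 (adjusted p = 0.624), and the processed signals put it at -0.49 (adjusted p = 0.133).

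Emx2, needed for hippocampal and caudal cortical growth, had log2 ratios of -0.14 and 0.07 with APPswe/PS1dE9 in Cy3 and 0.20 and 0.22 with it in Cy5. Its fitted value was 0.09 ± 0.07 (adjusted p = 0.465), and with the processed signals it was -0.04 (adjusted p = 0.746). Lhx2, the LIM homeodomain factor that specifies cortex against the cortical hem, had log2 ratios of -0.09, 0.04, -0.16 and -0.20. Its fitted value was -0.10 ± 0.06 (adjusted p = 0.365), and its intensities overlapped between the genotypes, at 12.04, 12.37, 12.12 and 11.99 in APPswe/PS1dE9 RNA and 12.12, 12.33, 12.27 and 12.20 in WT RNA.

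A test that is missed does not show equal levels. The 95% intervals of the 8 genes that did not pass reached down to -0.41 for Emx1, -0.31 for Pax6, -0.28 for Sox1 and -0.27 for Sox2, and up to 0.28 for Sox9 and 0.25 for Emx2. The interval of Hopx ran from 0.40 to 0.69 and overlapped none of these. With median centring Sox1 was at -0.24, Sox2 at -0.28, Sox3 at -0.20 and Lhx2 at -0.27, and none of these passed. The median over all features was also lower with median centring, at -0.07 against 0.01 in the main fit. The median of every gene list was lower too, for example -0.12 against 0.02 for proliferation genes. Whether Sox1, Sox2, Sox3 and Lhx2 fell beyond this general shift was not tested. The intervals, too, leave out differences between the dye orientations.

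**Figure D3:**
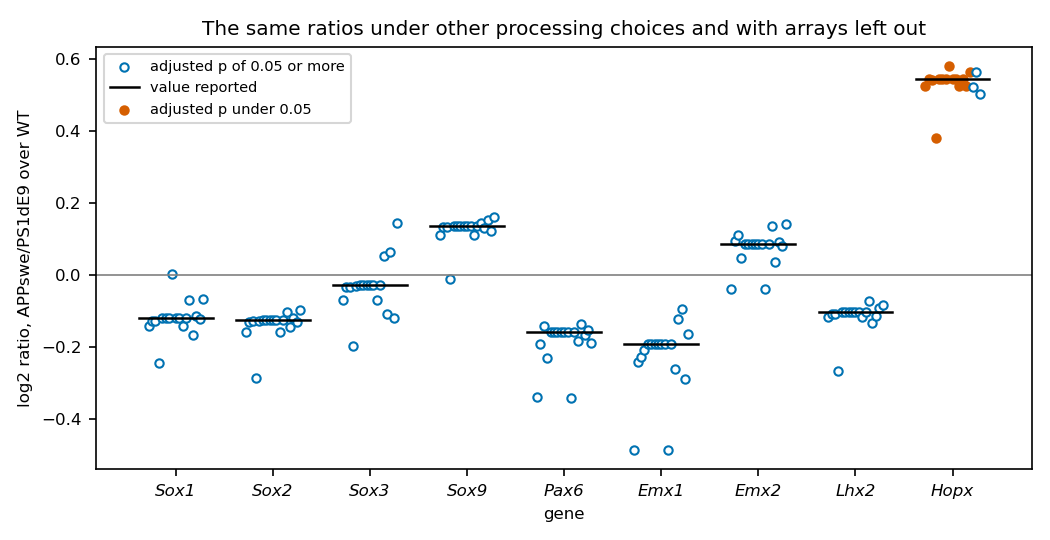
Log2 ratio of APPswe/PS1dE9 over WT (vertical axis) of the 9 genes (horizontal axis) under each other processing choice and with arrays left out, as points, with the reported value as a black line. Filled points have an adjusted p under 0.05, which is seen for Hopx, and the 3 open Hopx points are the values without replicate 3, without replicate 4 and on replicates 2 and 4.

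Genes that work with these factors were read out from lists. Of 15 other SOX genes 10 were measured, and 1 of them was lower and none higher. This was Sox11, a SoxC factor of differentiating neurons, with log2 ratios of -0.53, -0.36, -0.41 and -0.68 on replicates 1 to 4 (-0.50 ± 0.07, adjusted p = 0.0120). Sox11 did not pass without replicate 3 or without replicate 4, and with the processed signals none of the 10 passed, while 2 were lower and 1 higher both without replicate 2 and with median centring. The median over the 10 SOX genes was -0.07.

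Of 31 measured regulators of telencephalic progenitors other than the 9 genes, the test found 7 lower and none higher, and the median was -0.06. Hes5, a Notch target that holds progenitors undifferentiated, had log2 ratios of -0.59, -0.87, -0.53 and -0.51 (-0.63 ± 0.07, adjusted p = 0.00461). Gsx2, a homeobox gene of the ventral telencephalon, had -0.70, -0.55, -0.56 and -0.38 (-0.55 ± 0.07, adjusted p = 0.00622), and with the processed signals, which carry no offset, it was at -1.20 and passed as well. Its second probe was at -0.37. Sp8, a zinc finger gene of patterning and of interneurons, had -0.88, -0.63, -0.56 and -1.14 (-0.80 ± 0.11, adjusted p = 0.00801). A second, dimmer Sp8 probe was at -0.24 and did not pass (limma adjusted p = 0.0662 over all probes), and the mean over both probes was -0.52. Insm1, Sall1 and Nr2f1, named after their values were seen, fell as well. The count of 7 became 4 without replicate 2, 1 without replicate 3, 0 without replicate 4, 1 on replicates 2 and 4, 4 with the processed signals and 13 with median centring, and without replicate 1 it stayed at 7 while 4 others were higher.

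Among 24 measured radial glia and neural stem cell proteins, the test found 8 higher and 1 lower, and the median was 0.18. The intermediate filament gene Vim had log2 ratios of 0.78, 1.05, 0.91 and 1.14 (0.97 ± 0.08, adjusted p = 0.00127). Dbi, which encodes an acyl-CoA-binding protein, had 0.24, 0.04, 0.80 and 1.03 (0.53 ± 0.07, adjusted p = 0.00859), with lower ratios in the orientation with APPswe/PS1dE9 in Cy3. As for Sox2, the SE of Dbi leaves out this gap between orientations. Over 17 other settings the limma adjusted p of Dbi reached 0.389. The glutamate transporter gene Slc1a3 had 0.31, 0.34, 0.48 and 0.61 (0.43 ± 0.06, adjusted p = 0.00986). With median centring Dbi was at 0.30 and Slc1a3 at 0.25, and neither passed, nor did they without replicate 3, without replicate 4 or with the processed signals. Nes, which encodes the progenitor filament nestin, had 0.05, 0.83, 0.61 and 0.70 (0.55 ± 0.13, adjusted p = 0.0468). The Nes call was lost without replicate 3, without replicate 4, with the processed signals, the authors' values, an offset of 16, no background subtraction, no filter or every probe as its own feature, and its value was 0.35 without replicate 2. Tnc, the matrix gene tenascin C, fell, and is named after its value was seen (-0.36 ± 0.07, adjusted p = 0.0288). A second Tnc probe was at -0.25 ± 0.08 and did not pass (limma adjusted p = 0.137 over all probes). No gene of the list was lower without replicate 2, without replicate 3, without replicate 4, on replicates 2 and 4 or with no filter. The count of 8 was 1 without replicate 3, 1 without replicate 4, 2 on replicates 2 and 4, 1 with the processed signals and 3 with median centring. Vim, Slc1a3 and Nes are expressed by astrocytes too, whose markers are given above.

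Lineage genes that act after these factors moved in both directions. Of 8 measured neurogenic genes 2 were higher and 3 lower. Tbr1, a factor of deep-layer cortical neurons, had log2 ratios of 0.49, 0.47, 0.71 and 0.47 (0.53 ± 0.07, adjusted p = 0.00688), and Eomes, a factor of cortical intermediate progenitors, was higher as well (0.58 ± 0.10, adjusted p = 0.0206). The interneuron factors Dlx1 and Dlx2 and the immature neuron gene Dcx were lower, and these 3 and Eomes are named after their values were seen. Of the 8, none passed without replicate 4 and 1 passed without replicate 3, 2 were lower and none higher on replicates 2 and 4, and 1 was higher and 1 lower with the processed signals. Neurog2, a direct PAX6 target, was too dim to be tested.

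The astrocytic genes were the 7 astrocyte markers above and Sparcl1, and of these 8 genes 5 were higher and none lower, with a median of 0.33. Gfap had log2 ratios of 0.80, 0.94, 0.56 and 0.45 (0.69 ± 0.06, adjusted p = 0.00211), with its other probes at 0.42 and 1.16, and the water channel gene Aqp4 had 0.62, 0.91, 0.51 and 0.88 (0.73 ± 0.09, adjusted p = 0.00598). The count of 5 was 2 without replicate 3, 1 without replicate 4, 1 on replicates 2 and 4, 2 with the processed signals and 3 with median centring. None of 5 oligodendroglial genes passed (median -0.06).

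**Figure D4:**
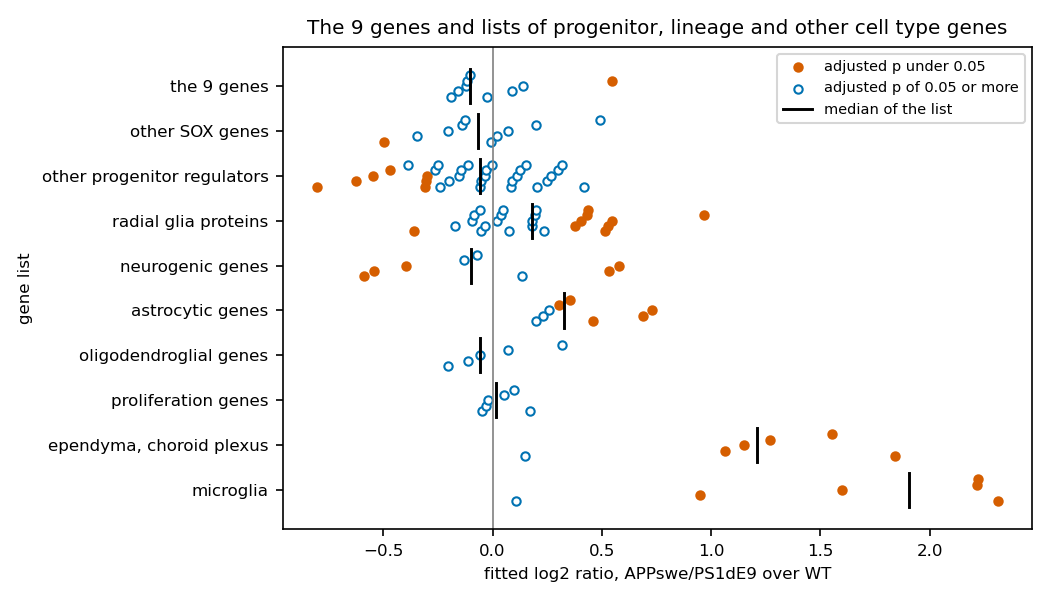
Fitted log2 ratio of APPswe/PS1dE9 over WT (horizontal axis) of the 9 genes and of the measured genes of other lists (vertical axis), with a point for each gene, filled where the adjusted p is under 0.05, and a black bar at each median. The 9 genes have their median at -0.10 with Hopx as their filled point at 0.54, while the medians of ependyma and microglia markers lie at 1.21 and 1.91.

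By the smallest Euclidean distance over the 4 arrays' log2 ratios, the genes nearest to Hopx among 13613 named genes were Sh3bgr (distance 0.064, log2 ratio 0.54) and Nckap1l (distance 0.065, log2 ratio 0.52). With the processed signals Nckap1l was at 2.09 and Hopx at 0.53, so the nearness of Nckap1l holds for the processing used. Nearness of 4 ratios is a description of these arrays alone.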

How the data were processed

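Per the file headers, the scanner output was made with Feature Extraction 11.0.1.1 on an array annotated for mm9. The authors deposited, for each spot, the median intensity and local background of both channels without normalization, and processed intensity with a log10 ratio (Cy5 to Cy3). The deposited value table of 29350 spots matched log2 ratios of the processed signals, not centred, APPswe/PS1dE9 over WT (slopes -1.00, -1.00, 1.00 and 1.00 on log2 Cy5/Cy3; column medians -0.0797, -0.155, -0.0373 and -0.0378).

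Median signals were background-corrected by normexp (offset 50) and loess was run within arrays in limma 3.58.1 (R 4.3.3). Control and outlier spots were left out, and spots of a probe averaged. Probes well above background in 1 genotype on at least 3 of 4 arrays were kept (26912). A gene stands as its brightest kept probe. limma fitted genotype and a dye intercept to 20591 features (2 residual and 4.13 prior degrees of freedom). Intensities are per channel after loess and Aquantile. Symbols came by accession from a RefSeq table of GRCm38.p6. Precision is limited by the number of arrays.

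The genes and lists were chosen with earlier results of these data known. Named genes were the 9, the 3 of smallest p past the threshold in each list, Nes, Gfap, and the nearest patterns to a called gene; a gene that the rule also names is not reported here. The fit was also run on simulated data with noise drawn independently for each array. Those data held no dye response that differed between genes, so they do not test the fit for the differences between orientations seen here.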

Additional observations from a re-analysis of the deposited data

How the results depend on the processing

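Among the 9 genes, 1 was higher and 0 were lower under the 12 processing alternatives tried on 4 arrays. Leaving out replicates gave 0 to 1 higher, and replicates 2 and 4 alone, where Xist was detected in both genotypes, gave 0. Hopx ranged from 0.38 (median centring, adjusted p = 0.0146) to 0.58, and it was 0.53 with the processed signals (adjusted p = 0.0389). With median centring limma gave each of the 9 genes the same SE of 0.12. Those p-values thus do not use the spread of each gene, and calls with median centring are not like the others in this. Signs turned for Sox1 with probes averaged (0.0026), Sox2 within the Cy3 orientation (0.083), Sox3 without replicate 1 (0.054) and without replicate 3 (0.064; range over replicates left out -0.119 to 0.0641), on replicates 2 and 4 (0.145) and within the Cy5 orientation (0.0029), Sox9 with median centring (-0.0108), and Emx2 with the processed signals (-0.0395), the authors' value table (-0.0395) and within the Cy3 orientation (-0.035). Over all features 1698 were higher and 470 lower. With median centring 1308 and 1307 were, with the processed signals 715 and 240, 722 and 239 with the values the authors deposited, with no filter 960 and 103, and on replicates 2 and 4 469 and 11. The lower count was 284 with no background subtraction and 259 with no dye intercept. Leaving out replicates gave 368 to 2242 higher and 4 to 513 lower. The cause was not tested. Since each value is a ratio within an array, the fit is itself paired by array. By its construction the offset draws ratios of dim probes such as those of Pax6, Emx1, Gsx2 and Nckap1l towards 0. With an offset of 16 Pax6 was at -0.19, Emx1 at -0.24 and Emx2, also dim, at 0.10. The processed signals were not run through loess here either, and the part of the offset in their values was not tested.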

Other observations

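Noncoding genes that lie beside these genes or beside Pou3f3 were looked for by their own accession. Of 9 such genes 4 were on the array and 3 bright enough to be tested, and none passed. Sox1ot, the transcript that overlaps Sox1, had log2 ratios of -0.19, -0.03, 0.35 and 0.20 on replicates 1 to 4 (0.08 ± 0.07, limma adjusted p = 0.498), so its sign followed the dye orientation. Emx2os, antisense to Emx2, was at 0.01 ± 0.10 (limma adjusted p = 0.969) and was well above background on 3 of 4 arrays in APPswe/PS1dE9 and on 1 of 4 in WT RNA. Pantr1, beside Pou3f3, was at 0.10 ± 0.07 (limma adjusted p = 0.429).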
